A study of Arabidopsis thaliana with 12 samples.

Results

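The response of Arabidopsis thaliana seedlings to methyl viologen was compared between the med8 mutant and the Col-0 wild type in a single interaction contrast. The contrast was the methyl viologen response in med8 (methyl viologen over control) minus the same response in Col-0, on the log2 scale, so a positive value means that the med8 response lay above the Col-0 response. All 12 libraries of the series entered it, 3 each of med8 with methyl viologen, med8 on control medium, Col-0 with methyl viologen and Col-0 on control medium; they are called treated and untreated below. Whole seedlings were 2 weeks old and had grown in long days on agar medium with 1% sucrose, in the treated groups with 25 nM methyl viologen in that medium. The med8 allele is not given in the sources used here, and nothing states whether the 3 libraries of a group came from separate plants or plates, so p-values reflect only how these libraries vary, which may be technical. Of 21543 loci in the count table, 20741 passed the filter on low counts and were tested.

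MED8 is a subunit of Mediator, the complex through which transcription factors reach RNA polymerase II. Methyl viologen (paraquat) is a herbicide that takes electrons from photosystem I and passes them to oxygen, which forms superoxide in the chloroplast and, through iron, can lead to more reactive species. Plants answer such stress with genes for antioxidants, detoxification, altered iron handling and defence, and many of these genes are also set by the time of day through the circadian clock.

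The libraries held 30472194 to 34694751 counts. Values per library are CPM, counts relative to library size with TMM factors, and a gene is called where edgeR's quasi-likelihood test gave a Benjamini-Hochberg adjusted p under 0.05 over all genes tested. The gene lists used below were written with earlier results of these data known, so counts of their members describe and do not test. Responses and interactions are log2 values. Errors after ± are SEs worked back from the test, the size of the log2 value over the root of its F statistic. MED8 stood at 6.21, 5.46 and 4.85 CPM in treated med8 and 5.06, 5.23 and 6.41 CPM in untreated med8, against 22.2, 19.4 and 20.1 CPM in treated Col-0 and 20.5, 20.003 and 18.9 CPM in untreated Col-0, and its interaction was −0.07 ± 0.16 on the log2 scale (SE; edgeR adjusted p = 0.829). MED8 was lower in all 6 med8 libraries than in all 6 Col-0 libraries, by a log2 difference (med8 minus Col-0) of −1.90 ± 0.11 on methyl viologen and −1.83 ± 0.11 on control medium (edgeR adjusted p = 1.21e-06 and 5.51e-05). Col-0 control replicate 1 and med8 control replicate 3 stood apart from the other libraries of their groups, and results that changed without both are given in that form too. Summed root tissue markers, 17 genes, spanned 338 to 345 CPM in treated med8 and 162 to 319.9 CPM in untreated med8, where replicate 3 was the lowest, against 269.6 to 326 CPM in treated Col-0 and 289 to 323 CPM in untreated Col-0. Summed flower and seed markers, 5 genes, spanned 18.18 to 21 CPM in treated med8 and 40.1 to 47.3 CPM in untreated med8, against 45.1 to 61.7 CPM in treated Col-0 and 66.2 to 71.4 CPM in untreated Col-0, with no overlap between media in either genotype. These 5 genes include the flowering activator gene SOC1 (interaction −0.88), and methyl viologen was called lower for only 2 of them in med8 and 1 in Col-0. How far the sum follows SOC1 alone was not tested, so it is a weak measure of flower or seed tissue. The part of tissue composition in the results was not tested beyond a fit with the root marker level as a covariate, and in whole seedlings fewer cells of a type and less RNA per cell cannot be told apart.

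Genotype changed the methyl viologen response of 2885 genes, which is 13.9% of those tested. The med8 response lay above the Col-0 response for 1296 genes (6.25%) and below it for 1589 genes (7.66%), and 732 and 392 of these differed by at least 2-fold. Under upper-quartile scaling the balance turned, with 1456 genes above and 1276 below, while the median interaction over all genes stayed between −0.01 and 0.05 under every scaling. Methyl viologen was called for 8931 genes in med8 (43.1%), of which 4528 rose (21.8%) and 4403 fell (21.2%), and for 5969 genes in Col-0 (28.8%), of which 3191 rose (15.4%) and 2778 fell (13.4%). The median response over all genes was 0.03 in med8 and −0.0013 in Col-0. Of the 4080 genes called in both genotypes, 3762 moved in the same direction, and 3344 of those had no interaction call. The count of 2885 fell to 1874 without med8 methyl viologen replicate 2 and to 1912 without Col-0 methyl viologen replicate 1, and reached 4094 without the 2 libraries that stood apart.

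The 2885 genes were sorted by whether methyl viologen was called in each genotype and in which direction. A gained response, called in med8 alone, was the most frequent kind, with 1516 genes (7.31% of genes tested), of which 631 rose and 885 fell in med8. A lost response, called in Col-0 alone, was found for 589 genes (2.84%), of which 279 rose and 310 fell in Col-0. A reversed response, called in both genotypes in opposite directions, was found for 318 genes (1.53%), of which 120 rose in med8 and fell in Col-0, and 198 fell in med8 and rose in Col-0. The response kept its direction but was reduced in med8 for 120 genes (0.579%) and enlarged for 298 genes (1.44%), and 44 genes were called in the interaction but in neither response. The kinds describe calls, and a response that missed its threshold in a genotype is not shown to be absent there. Of the lost genes, 522 had a med8 response under 50% of the size of the Col-0 response, and of the gained genes, 1352 had a Col-0 response under 50% of the size of the med8 response.

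**Figure D1:**
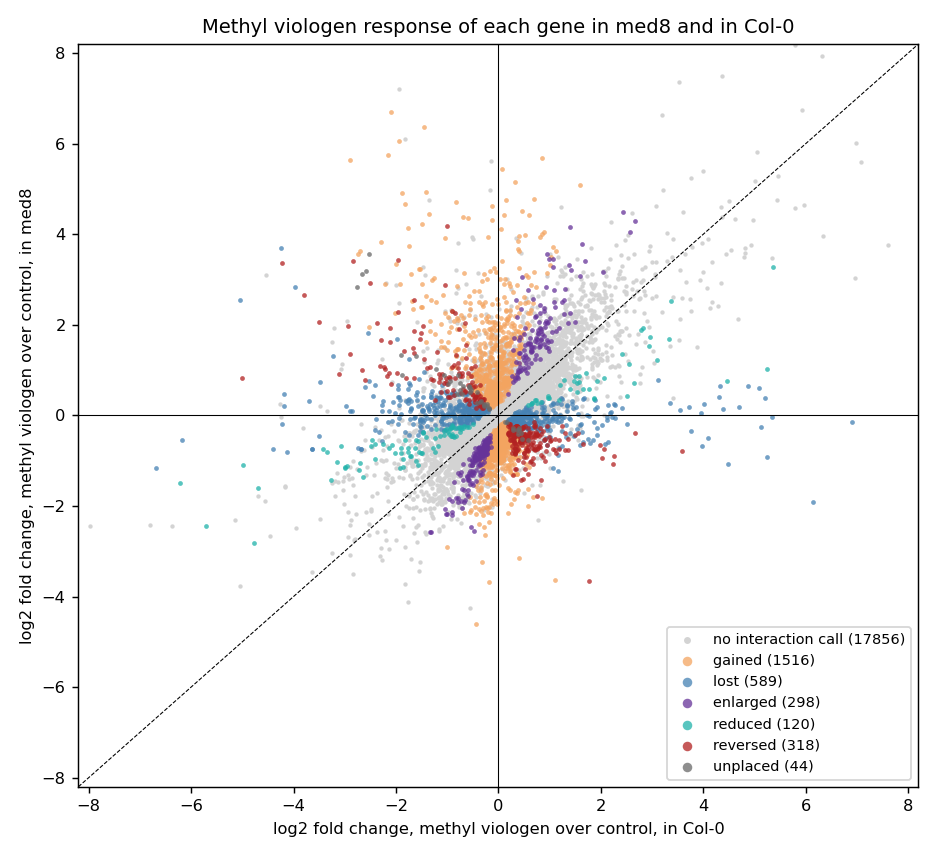
Methyl viologen response (log2 fold change) of each tested gene in med8 on the vertical axis and in Col-0 on the horizontal axis, coloured by kind of interaction, with the dashed line at equal responses. Gained genes spread along the vertical axis, lost genes along the horizontal axis, and the 318 reversed genes fill the upper left and lower right quadrants, where those at upper left reach further from 0; 3 genes lie outside the range shown.

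Reversed genes that rose in med8 had larger responses than those that fell in med8. The 120 that rose in med8 had a median response of 0.83 in med8 and −0.88 in Col-0, and a median interaction of 1.77. The 198 that fell in med8 had medians of −0.50 in med8 and 0.50 in Col-0, and a median interaction of −1.06. With at least 2-fold required of both responses, 33 reversed genes remained, of which 31 rose in med8 and 2 fell in it. Leaving out both libraries that stood apart gave 554 reversed genes, 254 rising and 300 falling in med8, and leaving out Col-0 methyl viologen replicate 1 gave 201. The number rising in med8 was 202 without Col-0 control replicate 1, 68 without Col-0 methyl viologen replicate 1 and 74 without med8 methyl viologen replicate 2.

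CBF1 (AT4G25490) encodes a transcription factor that switches on cold and freezing tolerance genes. CBF1 had 14.8, 16.1 and 21.7 CPM in treated med8 and 1.72, 2.94 and 2.24 CPM in untreated med8, against 0.108, 0.232 and 0.199 CPM in treated Col-0 and 1.17, 1.2 and 0.726 CPM in untreated Col-0. The 3 treated med8 libraries were the highest of all 12 and the 3 treated Col-0 libraries the lowest, and the groups did not overlap. Genes named for the largest interactions of their kind had to show no overlap between media where called. Their separation between media therefore follows from the choice and is no added evidence. CBF1 rose in med8 by 2.93 ± 0.23 (edgeR adjusted p = 4.01e-06) and fell in Col-0, with a log2 change of −2.50 ± 0.38 (edgeR adjusted p = 5.33e-04), and the interaction was 5.43 ± 0.43 (edgeR adjusted p = 2.64e-05). The high-affinity nitrate transporter gene NRT2:1 had 44.3, 38.7 and 42.1 CPM in treated med8 and 3.37, 2.26 and 1.21 CPM in untreated med8, against 1.46, 1.83 and 2.76 CPM in treated Col-0 and 4.72, 2.97 and 4.48 CPM in untreated Col-0. It rose in med8 by 4.19 ± 0.30 and fell in Col-0, with a change of −1.01 ± 0.31, an interaction of 5.20 ± 0.43 (edgeR adjusted p = 3.55e-05). BAP2, an inhibitor of cell death, had 8.7, 9.95 and 3 CPM in treated med8 and 0.516, 1.22 and 0.356 CPM in untreated med8, against 0.0542, 0 and 0.0854 CPM in treated Col-0 and 0.488, 1.78 and 0.568 CPM in untreated Col-0. Its interaction of 7.58 ± 1.16 rests on 5 counts in the 3 treated Col-0 libraries together, and the Col-0 ratio was 0.0544 with a 95% counting interval of 0.0172 to 0.132.

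Most cold-responsive genes tested moved in the same direction as CBF1, upward in med8 or downward in Col-0. Of 14 CBF factors and cold targets tested, 12 were called with a med8 response above the Col-0 response and none below it, where 6.25% and 7.66% of all genes were. The list had a median interaction of 1.61, against 0.01 over all genes, and a median response of 0.79 in med8 and −1.22 in Col-0. The 6 reversed members, against 1.53% of all genes, were CBF1, CBF2, DREB1A, COR15B, ERD10 and GolS3. COR15B had 276, 267 and 329 CPM in treated med8 and 128, 202 and 163 CPM in untreated med8, against 56.7, 87.2 and 72.4 CPM in treated Col-0 and 271, 235 and 248 CPM in untreated Col-0; this gene encodes a chloroplast protein that protects membranes in the cold. COR15B was higher in every treated than in every untreated med8 library and lower in every treated than in every untreated Col-0 library, with an interaction of 2.62 ± 0.25 (edgeR adjusted p = 6.92e-05). CBF2 changed by 2.04 in med8 and −0.64 in Col-0, and DREB1A, the other CBF factor, by 1.07 and −1.35. The fall of KIN2, RD29A, COR27 and AT4G33980 in Col-0 was lost in med8, with KIN2 at 0.24 in med8 and −1.94 in Col-0. KIN1 and COR15A rose in med8, by 1.48 and 0.85, with values of −0.12 and −0.24 in Col-0. COR47 and LTI30 had no interaction call (0.52 and 0.17). The 3 CBF genes are near-identical neighbours, so their reads may be shared.

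Most salicylic acid genes tested had a higher response in med8 than in Col-0, and 8 of 26 reversed, against 1.53% of all genes. Salicylic acid is the hormone of defence against biotrophic pathogens, and the list held its synthesis, signalling and target genes. Of 26 tested, 19 were called with a med8 response above the Col-0 response and none below, where 6.25% and 7.66% of all genes were. The median interaction was 3.40, and the median response was 1.92 in med8 and −1.36 in Col-0. In med8, 17 members rose and none fell on methyl viologen, where 21.8% of all genes rose and 21.2% fell. In Col-0, 10 fell and none rose, where 13.4% of all genes fell and 15.4% rose. The 8 reversed members were PCC1, WRKY70, WRKY54, FMO1, GRX480, ACD6, DLO1 and CBP60G. The synthesis genes ICS1, PBS3 and EDS5 rose in med8 alone, by 1.77, 3.12 and 1.85, and stood at −0.13, −1.70 and −0.51 in Col-0 without a call. NPR1, EDS1 and SAG101, a receptor and 2 signalling partners, had no interaction call, with values of 0.22, 0.80 and 0.58.

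PCC1 (AT3G22231) is a gene of pathogen response and circadian control, on chromosome 3 at 7845823 to 7846833 of TAIR10.1. Its promoter, from 250 bases before to 50 bases after the RefSeq start, minus strand of chr3:7846784-7847083, is printed because PCC1 was the reversed salicylic acid gene with the largest interaction; capitals mark the as-1 core TGACG, on either strand, which TGA factors of salicylic acid signalling bind.
PCC1: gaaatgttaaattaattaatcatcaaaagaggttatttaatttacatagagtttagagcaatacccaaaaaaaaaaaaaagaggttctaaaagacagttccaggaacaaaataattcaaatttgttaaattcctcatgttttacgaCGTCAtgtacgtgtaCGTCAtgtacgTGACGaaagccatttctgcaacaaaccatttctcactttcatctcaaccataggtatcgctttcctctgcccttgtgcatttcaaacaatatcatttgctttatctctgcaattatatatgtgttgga
The core begins at −104, −89 and −78 from the start. At least 1 is held by 23.601% of all promoters read and by 6 of the 26 salicylic acid genes (23.1%), so the core does not set this list apart. PCC1 had 129.9, 186 and 109 CPM in treated med8 and 26.7, 39.1 and 36.6 CPM in untreated med8, against 12, 17.1 and 6.15 CPM in treated Col-0 and 72.5, 184 and 144 CPM in untreated Col-0. The untreated Col-0 libraries were spread widely, with replicate 1 the lowest, and they overlapped with the treated med8 libraries. PCC1 rose in med8 by 2.05 ± 0.38 (edgeR adjusted p = 0.00133) and fell in Col-0, with a change of −3.50 ± 0.41 (edgeR adjusted p = 1.10e-04). The transcription factor gene WRKY54 had 22.1, 33.9 and 24.5 CPM in treated med8 and 5.23, 6.31 and 4.95 CPM in untreated med8, against 1.9, 2.26 and 1.91 CPM in treated Col-0 and 4.79, 11.1 and 7.61 CPM in untreated Col-0, with an interaction of 4.24 ± 0.38 (edgeR adjusted p = 6.00e-05). ALD1, which makes the precursor of the immune signal pipecolic acid, fell in Col-0 to 0.271, 0.203 and 0.199 CPM on methyl viologen, against 1.11, 3.85 and 1.51 CPM on control medium. In med8 it stood at 8.09, 10.9 and 5.14 CPM on methyl viologen, against 2.79, 5.57 and 1.39 CPM on control medium, a change of 1.30 ± 0.49 that missed its threshold (edgeR adjusted p = 0.0522), and the interaction was 4.54 ± 0.86. PR1, a secreted defence protein gene used as a marker of salicylic acid signalling, had 7.28, 10.6 and 2.19 CPM in treated med8 and 0.241, 3.07 and 0.0356 CPM in untreated med8, against 0.515, 3.95 and 1.88 CPM in treated Col-0 and 0.391, 121 and 84.8 CPM in untreated Col-0. Untreated Col-0 replicate 1 lay below all treated Col-0 libraries and the other 2 untreated ones far above them, and PR1 was called as a lost fall, with an interaction of 7.59 ± 2.04 (edgeR adjusted p = 0.03).

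The level of the salicylic acid list differed within groups. Its mean log2(CPM + 1) was 4.74, 5.16 and 4.43 in treated med8 and 3.28, 3.64 and 2.77 in untreated med8, against 2.71, 3.06 and 2.97 in treated Col-0 and 2.87, 4.72 and 3.94 in untreated Col-0, where replicate 1 lay within the range of treated Col-0. Without the 2 libraries that stood apart 24 members were called, all with a higher med8 response, and with the root marker covariate 7 were, at a median interaction of 3.23.

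Regulators of iron deficiency rose strongly in Col-0, and much of that rise was lost in med8. In plants short of iron, the related factors BHLH38, BHLH39, BHLH100 and BHLH101 rise and pair with FIT1 to switch on iron uptake, while ferritins and other proteins that hold iron fall. Of 20 iron deficiency regulators tested, 10 were called with a med8 response below the Col-0 response and 2 above it, where 7.66% and 6.25% of all genes were. The list's median interaction was −0.43. In Col-0, 14 of the 20 rose on methyl viologen and none fell (1 was lower at an unadjusted p under 0.05), at a median of 1.61. In med8, 9 rose and 3 fell, at a median of 0.37. Among all genes, 15.4% rose and 13.4% fell in Col-0, and 21.8% rose and 21.2% fell in med8. The 2 counts of interaction calls were again 10 and 2 without both libraries that stood apart; the 2 genes above, FIT1 and BHLH11, both lost their call without Col-0 control replicate 3, without Col-0 methyl viologen replicate 1 or 3, and without med8 methyl viologen replicate 2 or 3.

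BHLH100 (AT2G41240) lies on chromosome 2 at 17198037 to 17199454. Its promoter, minus strand of chr2:17199405-17199704 in TAIR10.1, is printed as that of the gene with the largest well-counted loss of a Col-0 rise; capitals mark the G-box CACGTG, a site of bHLH and bZIP factors, and the W-box form TTGACC, a site of WRKY factors, read on either strand.
BHLH100: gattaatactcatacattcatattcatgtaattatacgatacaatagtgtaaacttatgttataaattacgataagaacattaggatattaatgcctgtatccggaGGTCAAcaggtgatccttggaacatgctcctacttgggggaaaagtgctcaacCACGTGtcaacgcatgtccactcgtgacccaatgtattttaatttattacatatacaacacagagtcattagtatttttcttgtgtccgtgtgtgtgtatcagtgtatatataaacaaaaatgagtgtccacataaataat
The G-box begins at −91 and the W-box at −144; 8.63% and 14.5% of all promoters read hold them. BHLH100 had 32, 46.1 and 35.3 CPM in treated med8 and 38.3, 30.7 and 46.9 CPM in untreated med8, against 306, 237 and 190.5 CPM in treated Col-0 and 5.08, 4.14 and 8.93 CPM in untreated Col-0. The treated Col-0 libraries were the highest of all and the untreated Col-0 libraries the lowest, while the treated and untreated med8 libraries overlapped between those levels. BHLH100 rose in Col-0 by 5.34 ± 0.31 (edgeR adjusted p = 1.09e-06) and had a change of −0.03 ± 0.26 in med8 (edgeR adjusted p = 0.932), which gave an interaction of −5.37 ± 0.39 (edgeR adjusted p = 2.01e-05). BHLH38 had 34.6, 48.2 and 36.3 CPM in treated med8 and 32.1, 25 and 34.7 CPM in untreated med8, against 315, 266 and 214 CPM in treated Col-0 and 5.31, 4.3 and 12 CPM in untreated Col-0, an interaction of −4.82 ± 0.44. BHLH39 rose in both genotypes, by 0.76 ± 0.23 in med8 and 4.47 ± 0.26 in Col-0. BHLH38 and BHLH39 are neighbouring copies whose reads may be shared.

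BHLH101 (AT5G04150) reversed. BHLH101 had 10.03, 12.2 and 10.4 CPM in treated med8 and 19.8, 18.4 and 17.7 CPM in untreated med8, against 54.2, 49.1 and 38.1 CPM in treated Col-0 and 3.29, 3.59 and 4.83 CPM in untreated Col-0. All 4 groups were separate, with untreated med8 above treated med8 and treated Col-0 far above untreated Col-0. It fell in med8, with a change of −0.78 ± 0.15 (edgeR adjusted p = 0.00142), rose in Col-0 by 3.59 ± 0.16 (edgeR adjusted p = 3.15e-07), and had an interaction of −4.37 ± 0.22 (edgeR adjusted p = 1.54e-06). The chloroplast protein gene CGLD27 showed the same pattern, with 60.7, 71.5 and 63.6 CPM in treated med8 and 87.6, 82.1 and 87.2 CPM in untreated med8, against 384, 308 and 268 CPM in treated Col-0 and 48.2, 49.5 and 53.1 CPM in untreated Col-0, and an interaction of −3.06 ± 0.16 (edgeR adjusted p = 1.90e-06). The rise in Col-0 was lost in med8 for BTS, an E3 ligase that restrains iron uptake (−0.07 in med8, 2.27 in Col-0), and for 3 loci without a symbol here, AT1G47395, AT1G47400 and AT2G30766. AT2G30766 had 17.2, 20.1 and 15.1 CPM in treated med8 and 14.1, 12.5 and 17.1 CPM in untreated med8, against 79.1, 69.8 and 69.4 CPM in treated Col-0 and 6.61, 7.08 and 7.64 CPM in untreated Col-0. PYE, a bHLH repressor of this pathway, rose less in med8 (0.37) than in Col-0 (1.87). FIT1 and BHLH11 went the other way, rising in med8 alone, by 0.86 and 0.77, with −0.37 and −0.44 in Col-0. The upstream factors ILR3, BHLH104, BHLH115 and BHLH34 had no interaction call, at −0.01, 0.09, 0.26 and −0.47.

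**Figure D2:**
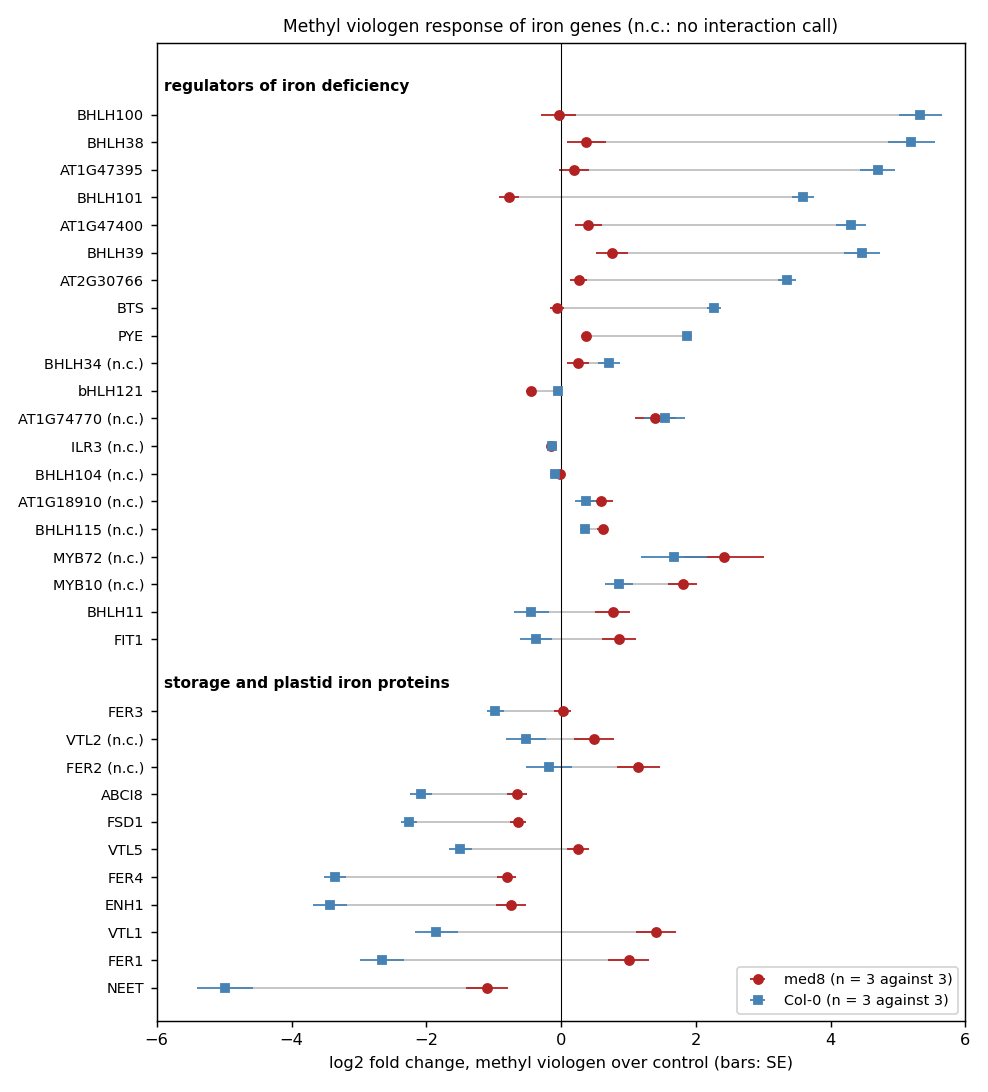
Methyl viologen response (log2 fold change, bars SE) in med8 (red circles) and Col-0 (blue squares) for each tested iron deficiency regulator and each iron storage or plastid iron protein gene, ordered by interaction within each list; n.c. marks genes with no interaction call. The Col-0 points of 9 regulators from BHLH100 to PYE lie to the right of their med8 points, and the Col-0 points of all 11 storage genes lie to the left.

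Most genes for iron storage and plastid iron proteins fell in Col-0 and had a higher response in med8. Of 11 tested, 9 were called with a med8 response above the Col-0 response and none below, where 6.25% and 7.66% of all genes were. The median interaction was 1.75. In Col-0 9 fell, where 13.4% of all genes did, while in med8 5 fell and 3 rose, where 21.2% and 21.8% did. NEET had 24.2, 17.1 and 22 CPM in treated med8 and 35.6, 47.7 and 52.2 CPM in untreated med8, against 0.271, 2.15 and 1.25 CPM in treated Col-0 and 46, 39.4 and 29.8 CPM in untreated Col-0; NEET encodes an iron-sulfur protein. The treated Col-0 libraries lay far below all others, and NEET changed by −1.10 ± 0.32 in med8 and −4.98 ± 0.41 in Col-0, an interaction of 3.89 ± 0.52 (edgeR adjusted p = 6.54e-04). The ferritin gene FER4 had 19.8, 19.2 and 20.3 CPM in treated med8 and 30.6, 36.8 and 36.2 CPM in untreated med8, against 2.52, 3.83 and 4.13 CPM in treated Col-0 and 31.6, 41.6 and 33.6 CPM in untreated Col-0, with separate groups within each genotype and an interaction of 2.55 ± 0.22. FER1 reversed, with 1.01 in med8 and −2.66 in Col-0, as did the vacuolar iron transporter-like gene VTL1, with 1.41 and −1.85. FER3 fell in Col-0 alone (0.02 in med8, −0.97 in Col-0), and FER2 had no interaction call (1.32). FSD1, the iron superoxide dismutase of the plastid, had 654, 586 and 677 CPM in treated med8 and 935, 1054 and 1002 CPM in untreated med8, against 177, 230.4 and 232 CPM in treated Col-0 and 941, 1144 and 973 CPM in untreated Col-0, an interaction of 1.62 ± 0.17 (edgeR adjusted p = 1.06e-04). ENH1, a plastid rubredoxin-type protein, changed by −0.74 in med8 and −3.43 in Col-0, and ABCI8, a scaffold for iron-sulfur clusters, by −0.65 and −2.08.

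Iron uptake and transport genes were split. Of 23 tested, 7 were called with a higher and 7 with a lower med8 response, where 6.25% and 7.66% of all genes were. The median interaction was 0.53. Several transporter and reductase genes rose in Col-0 and changed far less in med8. The vacuolar transporter gene ZIF1 changed by 0.05 in med8 and 2.18 in Col-0, and the vacuolar exporter gene NRAMP4 by 0.23 and 2.15. The phloem transporter gene OPT3 changed by 0.24 and 2.25, and the mitochondrial reductase gene FRO3 by −0.04 and 2.11. ZIF1 had 75.7, 86.8 and 82.9 CPM in treated med8 and 76.5, 74.4 and 85.8 CPM in untreated med8, against 266, 219.5 and 199.9 CPM in treated Col-0 and 48, 51.6 and 51.6 CPM in untreated Col-0. The treated Col-0 libraries stood above all others, and the 2 med8 groups overlapped. NRAMP4 had 67, 72.4 and 65.9 CPM in treated med8 and 58.6, 58.7 and 57.3 CPM in untreated med8, against 197, 175 and 169.6 CPM in treated Col-0 and 33.9, 42.4 and 45.7 CPM in untreated Col-0, with all 4 groups separate and an interaction of −1.92 ± 0.14 (edgeR adjusted p = 1.62e-05). In the other direction, CYP82C4 and AT3G12900 rose in med8 alone, by 3.17 and 2.89, with 0.70 and 0.63 in Col-0, as did the nicotianamine synthase gene NAS2 (3.14 in med8, 0.95 in Col-0) and the proton pump gene AHA2 (1.14 and 0.26). CYP82C4 acts in the making of the iron-binding coumarin sideretin. The root uptake genes IRT1 and FRO2 had no interaction call, at 0.56 and 1.09; IRT1 rose by 2.18 in med8 and 1.61 in Col-0. With the root marker covariate 4 members were called higher and 8 lower.

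Among other lost responses, LEA7, SAG29 and CYP71A13 rose in Col-0 alone and GLR2.2, DMP1, MEE3 and CAT3 fell in Col-0 alone. The 279 genes that rose in Col-0 alone had a median response of −0.08 in med8 and 0.68 in Col-0, and the 310 that fell in Col-0 alone had medians of 0.10 in med8 and −0.90 in Col-0. Without Col-0 methyl viologen replicate 1 the 2 counts were 182 and 191. SAG29, a sugar transporter gene of senescing leaves, had 2.25, 1.86 and 2.35 CPM in treated med8 and 1.14, 1.59 and 1.5 CPM in untreated med8, against 20.8, 23.8 and 13.7 CPM in treated Col-0 and 0.651, 0.355 and 0.694 CPM in untreated Col-0. The treated Col-0 libraries lay above every other library, with an interaction of −4.47 ± 0.38 (edgeR adjusted p = 3.36e-05). LEA7, a late embryogenesis abundant protein gene of dehydration, had 0.289, 0.246 and 0.365 CPM in treated med8 and 0.0344, 3.38 and 0 CPM in untreated med8, against 15.5, 6.33 and 21.8 CPM in treated Col-0 and 0.0326, 0.42 and 0.158 CPM in untreated Col-0. The untreated med8 replicate 2 held nearly all LEA7 counts of its group, and without it the interaction of −8.05 ± 1.73 (edgeR adjusted p = 0.0103) was −2.29 with an adjusted p of 0.777.

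CAT3, a peroxisomal catalase gene, had 3496, 3291 and 3753 CPM in treated med8 and 2847, 2976 and 2466 CPM in untreated med8, against 842, 1433 and 1373 CPM in treated Col-0 and 3317, 5419 and 4989.7 CPM in untreated Col-0. Its treated Col-0 libraries were the lowest of all, and the interaction was 2.26 ± 0.30 (edgeR adjusted p = 5.40e-04). The glutamate receptor-like gene GLR2.2 had 7.05, 5.77 and 7.38 CPM in treated med8 and 6.57, 8.13 and 4.06 CPM in untreated med8, against 0.433, 0.464 and 0.228 CPM in treated Col-0 and 2.93, 2.55 and 2.78 CPM in untreated Col-0, an interaction of 2.97 ± 0.39. CYP71A13, which makes a precursor of the defence compound camalexin, rose in Col-0 by 2.41 ± 0.23 and had 0.17 ± 0.22 in med8. The asparagine synthetase gene DIN6 and the myrosinase gene TGG2 fell in Col-0, with −1.54 ± 0.16 and −1.08 ± 0.14, and had −0.10 ± 0.16 and −0.05 ± 0.14 in med8. DMP1 and MEE3 had interactions of 3.07 ± 0.61 and 2.88 ± 0.36.

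Gained rises included most of the tested genes that plants switch on soon after touch, wounding or a pathogen signal. The 631 genes that rose in med8 alone had a median response of 1.13 in med8 and −0.09 in Col-0, and the 885 that fell in med8 alone had medians of −0.63 and −0.01. Without med8 methyl viologen replicate 2 the 2 counts were 389 and 572. Of 23 rapid stress transcription factor genes tested, 17 were called with a higher med8 response and none with a lower, all 17 as gained rises, at a median interaction of 2.14. Over all genes tested, 6.25% were called higher and 7.66% lower, 7.31% were gained in either direction, and 21.8% rose in med8. In Col-0, 15.4% of all genes rose and 13.4% fell. In med8, 22 of the 23 rose on methyl viologen; in Col-0, 1 rose and none fell (3 were lower at an unadjusted p under 0.05). Of 14 touch and calmodulin-like genes, 12 were called with a higher med8 response and none with a lower, at a median interaction of 1.94, and 13 rose in med8. In the cold, salicylic acid, iron storage, touch, rapid factor and jasmonate lists, 0 members had a lower med8 response at an unadjusted p under 0.05 in edgeR, and DESeq2 called 0 as lower. These lists were chosen with earlier results of these data known, so a shared direction is no test of the families. The rapid factors stood at a mean log2(CPM + 1) of 4.28, 4.56 and 4.43 in treated med8 and 2.49, 2.64 and 2.19 in untreated med8, against 2.45, 2.66 and 2.71 in treated Col-0 and 2.23, 2.96 and 2.69 in untreated Col-0. The treated med8 libraries were above all others, and the treated and untreated Col-0 libraries overlapped. Dropping both libraries that stood apart gave 19 and 13 calls for the 2 lists, and the root marker covariate gave 12 and 9.

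ERF4, an ethylene response factor gene that represses transcription, had 80.1, 83.7 and 85.5 CPM in treated med8 and 15.9, 18.7 and 15.2 CPM in untreated med8, against 23.9, 27.2 and 28.5 CPM in treated Col-0 and 19.4, 25 and 23.5 CPM in untreated Col-0. It rose in med8 by 2.32 ± 0.11 (edgeR adjusted p = 2.27e-07) and had 0.23 ± 0.10 in Col-0 (edgeR adjusted p = 0.128), an interaction of 2.09 ± 0.15 (edgeR adjusted p = 1.39e-05). ERF104, an ethylene response factor gene of the same early response, had 51.6, 53 and 53.2 CPM in treated med8 and 19.7, 21.3 and 20.02 CPM in untreated med8, against 12.4, 14.5 and 13.4 CPM in treated Col-0 and 13.5, 17.5 and 17.7 CPM in untreated Col-0, with no overlap between the med8 groups. The related ERF5, ERF6, ERF11 and ERF105 rose in med8 by 1.73, 2.09, 3.86 and 3.16, and stood at −0.54, −0.22, 0.38 and −0.06 in Col-0. The zinc finger genes ZAT10 and ZAT12 rose in med8 by 3.02 and 1.81 (0.04 and 0.24 in Col-0), and WRKY33 and WRKY40, factors of pathogen response, by 1.91 and 4.12 (−0.16 and 0.06 in Col-0). WRKY53, WRKY30, WRKY6, WRKY11, RRTF1 and RD26 had no interaction call. RD26 alone of the list fell in med8 (−0.86).

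TCH2 (AT5G37770), a calmodulin-like gene induced by touch, lies on chromosome 5 at 14997514 to 14999619. Its promoter, minus strand of chr5:14999570-14999869 in TAIR10.1, is printed for the CAMTA core CGCGT, the site of calmodulin-binding activators, in capitals here together with 1 as-1 core at −53; each ACGCGT holds the CAMTA core on both strands, so overlapping matches begin at −83, −82, −64 and −63.
TCH2: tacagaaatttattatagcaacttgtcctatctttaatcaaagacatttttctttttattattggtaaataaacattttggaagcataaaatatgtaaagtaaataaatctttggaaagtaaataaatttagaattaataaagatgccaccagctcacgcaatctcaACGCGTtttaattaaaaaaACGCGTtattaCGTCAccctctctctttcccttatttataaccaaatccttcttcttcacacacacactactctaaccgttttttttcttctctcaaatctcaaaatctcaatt
TCH2 had 49.1, 53.2 and 57 CPM in treated med8 and 15.9, 15.4 and 17.56 CPM in untreated med8, against 16.4, 16.9 and 18.24 CPM in treated Col-0 and 12.2, 14.3 and 15.2 CPM in untreated Col-0. The treated med8 libraries were far above all others, and the interaction was 1.401 ± 0.13 (edgeR adjusted p = 6.24e-05). SZF1, a tandem zinc finger gene of salt and immune responses, had 155, 185 and 198 CPM in treated med8 and 23.9, 21.6 and 18.9 CPM in untreated med8, against 25.4, 29.9 and 32.5 CPM in treated Col-0 and 18.4, 24 and 21.8 CPM in untreated Col-0. Both genes rose slightly in Col-0 as well, by 0.30 and 0.45, and so count as enlarged. TCH3 and TCH4 rose in med8 by 2.06 and 1.27; TCH4, a cell wall enzyme gene, fell in Col-0 (−0.63), while TCH3 had −0.18 there. CML37 and CML38 rose in med8 by 4.22 and 2.27, with −1.49 and −1.05 in Col-0. EXO and MYB44 had no interaction call, at −0.15 and 0.43.

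The largest gained rises were of genes near 0 in untreated med8. PUM8, an RNA-binding Pumilio gene, had 1.04, 2.08 and 0.939 CPM in treated med8 and 0 counts in all 3 untreated med8 libraries, which makes the rise at least 45.7-fold against a floor of 3 counts over the group. In Col-0 it had 2 counts on methyl viologen and 4 on control medium, and the interaction was not called without Col-0 control replicate 1 (edgeR adjusted p = 0.143). Its call was lost under 3 of 21 alternatives, that one included. NAC061 and NAC090, transcription factor genes of the NAC family, had 12, 11.8 and 2.35 CPM and 8.84, 9.67 and 3.1 CPM in treated med8. Over 7 and 9 counts in untreated med8 these are 124-fold (95% counting interval 59.9 to 309) and 80.2-fold (42 to 176). Their interaction calls were lost without Col-0 control replicate 2 (edgeR adjusted p = 0.112 and 0.190), as was that of the receptor kinase gene CRK37 (0.0694), which held 0, 5.46 and 0.473 CPM in the untreated Col-0 libraries. These calls were also lost with the root marker covariate for NAC061, NAC090 and CRK37.

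Jasmonate and ethylene genes were gained in part. Of 30 tested, 8 were called with a higher med8 response and none with a lower, where 6.25% and 7.66% of all genes were. The median interaction was 0.42. MYC2, the central jasmonate transcription factor gene, had 119, 111 and 135 CPM in treated med8 and 37.9, 38.4 and 39.3 CPM in untreated med8, against 52.8, 67.6 and 55.8 CPM in treated Col-0 and 39.9, 49.2 and 45 CPM in untreated Col-0, and it rose in both genotypes with an interaction of 1.26 ± 0.15 (edgeR adjusted p = 2.65e-04). The jasmonate repressor gene JAZ1 rose in med8 by 1.88 ± 0.27 and had −0.14 ± 0.26 in Col-0. The jasmonate synthesis genes LOX3, LOX4 and AOC3 rose in med8 alone, by 1.05, 2.57 and 1.93. VSP1, VSP2, PR4 and ORA59, late targets and an ethylene branch factor, had no interaction call (−0.05, 0.28, 0.30 and 0.22). The count of 8 fell to 5 without Col-0 control replicate 2 or 3, Col-0 methyl viologen replicate 1 or 3, med8 control replicate 1 or 3, or med8 methyl viologen replicate 1, and to 2 with the root marker covariate.

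Among the gained falls with the largest interactions, BXL1, a cell wall xylosidase gene, had 52.9, 60.9 and 44.3 CPM in treated med8 and 353, 391.7 and 236 CPM in untreated med8, against 196, 249 and 192 CPM in treated Col-0 and 243, 244 and 274 CPM in untreated Col-0. Every treated med8 library lay below every other library, with an interaction of −2.37 ± 0.25 (edgeR adjusted p = 1.37e-04). KCS12, of very long chain fatty acid synthesis, had 8.84, 8.91 and 8.89 CPM in treated med8 and 55.3, 28.5 and 19.98 CPM in untreated med8, against 42.7, 46 and 48.1 CPM in treated Col-0 and 21.6, 37.6 and 55.7 CPM in untreated Col-0. OXS3 and the root hair peroxidase gene RHS18 had interactions of −2.19 ± 0.31 and −2.57 ± 0.73, and the call for RHS18 was lost under 10 of 21 alternatives. The flowering activator gene SOC1 fell in med8 alone, with −1.20 ± 0.13 in med8 and −0.32 ± 0.13 in Col-0, and the late flavonoid repressor gene MYBL2 fell in both genotypes, with −2.04 ± 0.12 and −0.71 ± 0.11.

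Clock genes differed in response almost throughout. The plant clock is a loop of genes peaking around dawn, such as CCA1 and LHY, that repress genes of the evening, such as TOC1 and GI, and are repressed by them in turn. Of 20 clock genes tested, 19 had an interaction call, 10 with a higher and 9 with a lower med8 response, against 13.9% of all genes. By kind, 7 were lost, 6 reduced, 5 reversed and 1 enlarged, against 2.84%, 0.579%, 1.53% and 1.44% of all genes. ZTL was not called. Genes that peak in the morning rose in Col-0 and rose less, or fell, in med8. CCA1 had 42.4, 32.1 and 31.9 CPM in treated med8 and 19.9, 20.02 and 25.4 CPM in untreated med8, against 117, 93.8 and 79.7 CPM in treated Col-0 and 16.4, 13.1 and 16.9 CPM in untreated Col-0. The treated Col-0 libraries stood apart at the top, and the interaction was −1.94 ± 0.24 (edgeR adjusted p = 3.35e-04). LHY and RVE8 rose in both genotypes, by 1.89 and 1.14 in med8 and 2.79 and 2.55 in Col-0. PRR9 rose in Col-0 alone (0.18 in med8, 1.51 in Col-0).

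RVE1 (AT5G17300), a morning MYB-like factor gene that links the clock to auxin, reversed, and its promoter, minus strand of chr5:5692943-5693242 in TAIR10.1, is printed as that of the clock gene with the largest interaction; capitals mark a G-box at −111 and an as-1 core at +22, counted from the start as +1.
RVE1: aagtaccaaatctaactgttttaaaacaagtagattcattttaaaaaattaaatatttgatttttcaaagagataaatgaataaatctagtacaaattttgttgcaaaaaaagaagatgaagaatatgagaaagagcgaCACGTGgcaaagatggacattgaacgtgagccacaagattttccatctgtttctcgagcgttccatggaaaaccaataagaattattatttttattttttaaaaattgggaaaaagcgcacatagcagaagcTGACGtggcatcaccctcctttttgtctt
RVE1 had 5.2, 3.52 and 3.49 CPM in treated med8 and 6.85, 6.35 and 9.37 CPM in untreated med8, against 25.1, 23.5 and 19.1 CPM in treated Col-0 and 4.33, 3.97 and 5.84 CPM in untreated Col-0. It fell in med8, with a change of −0.89 ± 0.21 (edgeR adjusted p = 0.00522), and rose in Col-0 by 2.26 ± 0.21 (edgeR adjusted p = 1.72e-05). LNK2, LNK1 and RVE4, morning co-activators and a related MYB-like factor, also fell in med8 (−0.74, −0.23 and −0.76) and rose in Col-0 (1.06, 0.69 and 0.57). The evening genes TOC1, GI, LUX, FKF1, PRR3 and BOA fell in Col-0, with changes from −1.38 to −0.73, and had no call in med8, at −0.29 to 0.17.

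The mean log2(CPM + 1) of 5 morning genes (LHY, CCA1, RVE8, RVE1 and PRR9) minus that of 5 evening genes (TOC1, GI, LUX, ELF4 and FKF1) was −2.08, −2.28 and −2.45 in treated med8 and −2.95, −2.86 and −2.58 in untreated med8, against −0.48, −0.91 and −1.19 in treated Col-0 and −3.68, −3.97 and −3.72 in untreated Col-0. The 4 groups did not overlap, and the difference between media was larger in Col-0 than in med8. The hour at which each group was harvested is not given in the sources used here, so a shift of the clock and a difference in harvest time cannot be told apart. The part of this shift in the iron, cold and defence results was not tested.

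**Figure D3:**
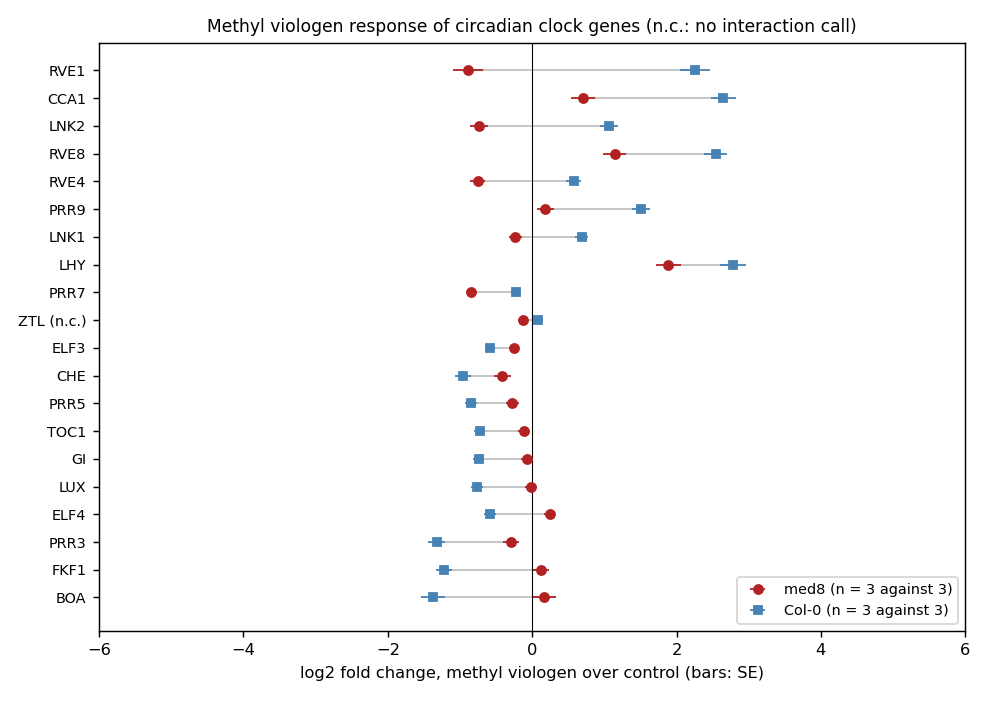
Methyl viologen response (log2 fold change, bars SE) of the 20 clock genes in med8 (red circles) and Col-0 (blue squares), ordered by interaction; n.c. marks the gene with no interaction call. From RVE1 to LHY the Col-0 points lie to the right of the med8 points, and from ELF3 to BOA to the left, so that the Col-0 responses spread from −1.38 to 2.79 and the med8 responses from −0.89 to 1.89.

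**Figure D4:**
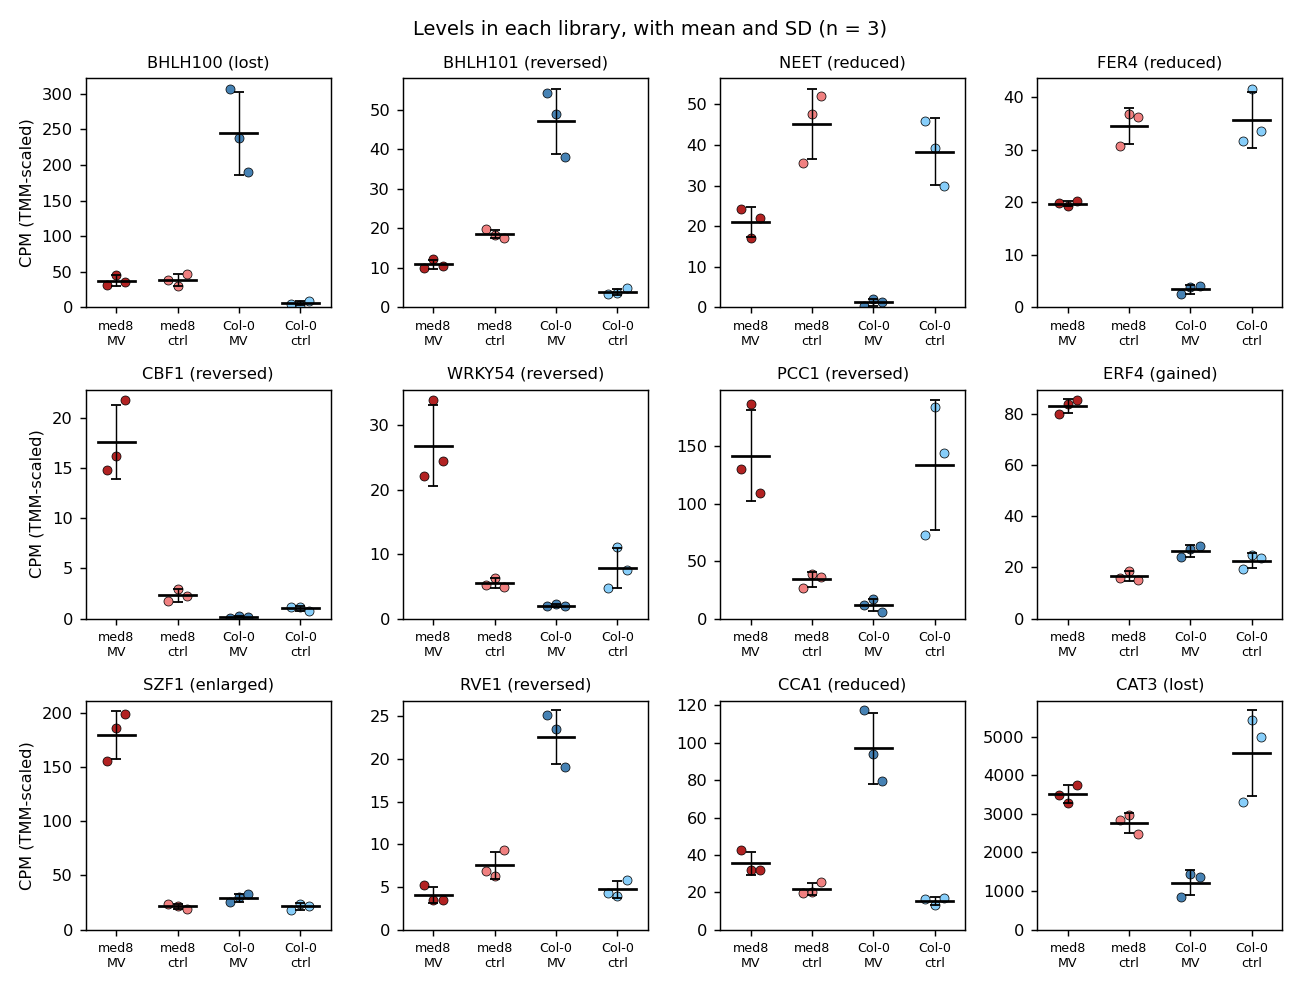
CPM of 12 genes in each library, with the mean (bar) and SD (whiskers) of 3 libraries, for treated (MV) and untreated (ctrl) med8 and then treated and untreated Col-0; each axis starts at 0 and the title gives the kind of interaction. Treated Col-0 stands alone at the top for BHLH100, BHLH101, RVE1 and CCA1 and at the bottom for NEET, FER4 and CAT3, and treated med8 stands alone at the top for CBF1, WRKY54, ERF4 and SZF1.

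Among the other reduced and enlarged genes, CYP712A2 fell in both genotypes and had 0.347, 0.164 and 0.235 CPM in treated med8 and 0.654, 0.844 and 0.606 CPM in untreated med8, against 0, 0.029 and 0.0285 CPM in treated Col-0 and 1.89, 0.937 and 2.18 CPM in untreated Col-0. Its Col-0 ratio of 0.0123 rests on 2 counts on methyl viologen (95% counting interval 0.00147 to 0.0451). BT2 and DIN10, genes that answer to sugar and darkness, fell much more in med8 (−2.55 ± 0.15 and −2.47 ± 0.17) than in Col-0 (−0.48 ± 0.14 and −0.53 ± 0.16). BT2 had 9.97, 11.7 and 12.5 CPM in treated med8 and 77.9, 71 and 52 CPM in untreated med8, against 52.1, 55.2 and 65.6 CPM in treated Col-0 and 73.6, 81.7 and 86.7 CPM in untreated Col-0, so only the treated med8 libraries lay clear of the rest. NF-YA10, a subunit of a CCAAT-binding factor, rose by 3.27 ± 0.28 in med8 and 1.06 ± 0.24 in Col-0. PHO1, a phosphate exporter gene of the root, rose by 1.29 ± 0.10 in med8 and 0.54 ± 0.10 in Col-0. The enlarged count of 298 was 489 without med8 control replicate 3, 543 without both libraries that stood apart, and between 149 and 190 without each of 5 other libraries (Col-0 control replicates 2 and 3, Col-0 methyl viologen replicates 1 and 2, and med8 methyl viologen replicate 2). The reduced count of 120 was 75, 59 and 76 without med8 methyl viologen replicates 1, 2 and 3.

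Antioxidant enzyme genes were called in both directions. Of 23 tested, 4 were called with a higher and 3 with a lower med8 response, together 30.4% of the list against 13.9% of all genes, and 16 were not called; the median interaction was 0.02. The peroxisomal catalase genes CAT2 and CAT3 went opposite ways, CAT2 rising in Col-0 alone (−0.13 in med8, 1.05 in Col-0) and CAT3 falling in Col-0 alone. The ascorbate peroxidase genes APX1 and SAPX reversed, rising in med8 (0.45 and 0.34) and falling in Col-0 (−0.49 and −1.24). The plastid peroxidase gene GPX7, not on the list, reversed the other way: GPX7 had 1.01, 0.82 and 1.36 CPM in treated med8 and 2.1, 2.36 and 2.24 CPM in untreated med8, against 6.61, 5.63 and 4.44 CPM in treated Col-0 and 1.11, 1.07 and 1.36 CPM in untreated Col-0, with an interaction of −3.30 ± 0.30 (edgeR adjusted p = 5.26e-05). Glutathione reductase gene GR also fell in med8 (−0.46) and rose in Col-0 (0.32).

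In the other stress lists most members had no interaction call, which does not show that their responses were alike. The share called was 27.8% of mitochondrial, 15.6% of detoxification and 5.56% of flavonoid genes, against 13.9% of all genes. On methyl viologen, 21.8% of all genes rose in med8 and 15.4% in Col-0. The median size of the interaction, either sign, was 0.90 in the mitochondrial and 0.58 in the flavonoid list, against 0.22 over all genes. Of 18 mitochondrial stress genes, 3 were called with a higher and 2 with a lower med8 response, while 16 rose in med8 and 15 in Col-0; the outer membrane protein gene OM66 rose in med8 alone (4.05 ± 0.43 in med8, 0.89 ± 0.40 in Col-0) and the dehydrogenase gene NDA1 in Col-0 alone (0.23 ± 0.13 and 1.34 ± 0.13). The count of 3 fell to 1 without Col-0 control replicate 2 or 3, Col-0 methyl viologen replicate 3 or med8 methyl viologen replicate 2, and OM66 was not called with the root marker level as covariate. The alternative oxidase gene AOX1A rose by 1.51 in med8 and 0.93 in Col-0, with an interaction call, and UGT74E2 by 4.59 and 4.34 without. Of 32 detoxification genes, 2 were called higher and 3 lower; GSTU17 reversed (−0.52 in med8, 1.10 in Col-0), GSTU5 fell in med8 alone, and GSTU24 rose by 2.29 in med8 and 2.16 in Col-0. Of 18 flavonoid and anthocyanin genes, 16 rose in med8 and 15 in Col-0, and only MYBL2 had an interaction call; the pigment enzyme gene DFR rose by 4.75 in med8 and 5.45 in Col-0. Of 10 heat shock genes none was called by edgeR, 2 had an unadjusted p under 0.05 and DESeq2 called 1; the most abundant, HSP70 and HSP90.1, had interactions of −0.12 ± 0.18 and 0.18 ± 0.27 (edgeR adjusted p = 0.754 and 0.741).

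Nuclear photosynthesis genes fell in both genotypes, with 43 of 43 falling in med8 and 33 of 43 in Col-0. Over all genes, 21.2% fell in med8 and 13.4% in Col-0. The list had a median interaction of −0.02, with 3 members called higher and 6 lower, together 20.9% against 13.9% of all genes. FED A, the iron-sulfur protein ferredoxin, had 726, 574 and 650.4 CPM in treated med8 and 1027, 1188 and 1257 CPM in untreated med8, against 218, 286 and 263 CPM in treated Col-0 and 1167, 1013 and 921 CPM in untreated Col-0, an interaction of 1.18 ± 0.19 (edgeR adjusted p = 0.0016). PSAF and PSAN, subunits of photosystem I, also fell less in med8 (−0.72 and −0.81) than in Col-0 (−1.62 and −1.76). The rubisco activase gene RCA reversed, with 3979.7, 3312 and 3114 CPM in treated med8 and 5237, 5752 and 6561 CPM in untreated med8, against 7587, 7723 and 6795 CPM in treated Col-0 and 5613, 4743 and 4671 CPM in untreated Col-0, and the Calvin cycle genes GAPA, GAPB, PRK and SBPASE fell in med8 alone, with changes of −0.65, −0.66, −0.84 and −0.67.

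For the remaining lists the counts are to be read against all genes tested, of which 13.9% were called, 6.25% higher and 7.66% lower. The share called was below 13.9% in the glucosinolate and camalexin list and near it in the growth, shade and auxin list. The other lists were above it, but these are short lists and rest on few called genes. Phosphate starvation genes had 3 of 16 called, all higher (PPCK1, MGD2 and MGD3). PPCK1, a kinase gene of carbon metabolism, had 49.8, 47.7 and 47.7 CPM in treated med8 and 25.4, 26.2 and 22.3 CPM in untreated med8, against 28.8, 30.8 and 32.8 CPM in treated Col-0 and 31.4, 32.3 and 33.9 CPM in untreated Col-0. MGD3, a galactolipid synthase gene, rose in med8 by 2.25 ± 0.20, with 0.41 ± 0.19 in Col-0. Abscisic acid and dehydration genes had 1 of 14 called higher and 3 lower: NCED3, of abscisic acid synthesis, rose in med8 alone (1.27 ± 0.20 in med8, −0.47 ± 0.21 in Col-0), and HAB1, a phosphatase gene that shuts off abscisic acid signalling, rose in Col-0 alone (0.25 ± 0.10 and 1.23 ± 0.10). Glucosinolate and camalexin genes had 1 of 25 called in each direction, but 5 were called higher without Col-0 control replicate 1, 6 without med8 control replicate 3, 10 without both and 11 with the root marker covariate. Growth, shade and auxin genes had 1 of 21 called higher (4 without med8 control replicate 3) and 2 lower, among them the light signalling factor gene PIF5 (interaction −0.57 ± 0.08). The 5 ROS hallmark genes included AT2G21640, a marker of oxidative stress, which rose in both genotypes (2.53 ± 0.15 in med8, 3.36 ± 0.16 in Col-0), and AT1G57630, a TIR domain gene, which rose in med8 alone. The interaction call was lost under 6 of 21 alternatives for AT2G21640 and under 11 of 21 for AT1G57630. Sugar markers had 2 of 9 called in each direction, root tissue markers 2 of 17 higher and 1 lower (the radial patterning gene SCR, interaction −0.56 ± 0.09), and flower and seed markers 1 of 5, which was SOC1.

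**Figure D5:**
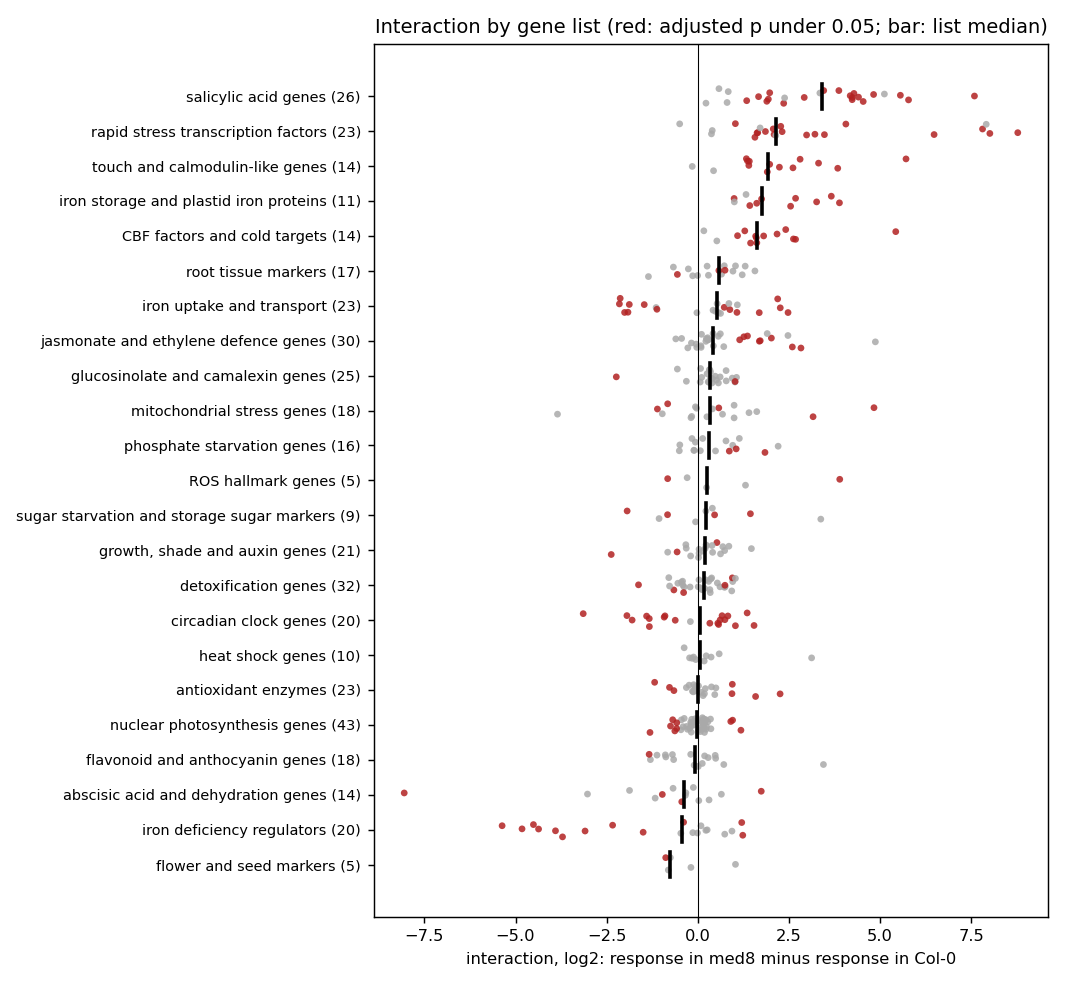
Interaction (log2, response in med8 minus response in Col-0) of each tested member of the 23 gene lists, with the number tested in parentheses; red points were called at an adjusted p under 0.05 and the black bar is the list median. The salicylic acid, rapid factor, touch, iron storage and cold lists have medians from 1.61 to 3.40, and clock genes and iron regulators spread to both sides of 0.

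The same libraries also give the genotype difference on each medium, side by side. For the lost genes that rose in Col-0, med8 was at a median of −0.56 relative to Col-0 on methyl viologen and 0.22 on control medium. For the reversed genes that rose in med8 the medians were 1.29 on methyl viologen and −0.40 on control medium, and for the gained rises 0.81 and −0.31. BHLH100 stood at −2.70 ± 0.27 in med8 relative to Col-0 on methyl viologen and at 2.67 ± 0.29 on control medium, so its med8 level was the lower on methyl viologen and the higher on control medium; BHLH101 gave −2.11 ± 0.15 and 2.25 ± 0.16. CBF1 gave 6.59 ± 0.31 on methyl viologen and 1.16 ± 0.27 on control medium, ERF4 1.65 ± 0.10 and −0.45 ± 0.11, and NEET 4.12 ± 0.41 and 0.23 ± 0.31. These values share all their libraries with the interaction and are no further evidence for it.

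Promoters were searched for 9 motifs on both strands, from 250 bases before to 50 bases after the RefSeq start of 20707 tested genes, as a description. The CAMTA core was in 16.8% of promoters of gained rises and 15.8% of reversed genes that rose in med8, against 9.45% of all promoters, and in 4 of 14 touch genes. The W-box form TTGACT was in 31.6% of gained rises and 17.5% of gained falls, against 22.3% of all. The other W-box form, TTGACC, did not differ in this way, at 14.8% of gained rises and 13.6% of gained falls, against 14.5% of all. The G-box was in 23.8% of reduced rises, 17.56% of lost rises and 15.7% of reversed genes that fell in med8, against 8.63% of all. It was also in 15.4% of reduced falls and 14.2% of reversed genes that rose in med8, so a raised share was not confined to 1 direction. The shares in lost falls and gained rises (8.57%) lay nearer to that of all promoters. Of 20 clock genes, 10 held the G-box. The evening element AAAATATCT was in 14.1% of reduced falls and 9.03% of lost falls, against 3.02% of all, and in 6 of 20 clock genes. The DRE core CCGAC, bound by CBF factors, was in 10.8% of reversed genes that rose in med8, against 15.9% of all, and in 4 of 14 cold genes. The GCC box GCCGCC was in 3.33% of gained rises and 2.57% of all, and the mitochondrial dysfunction motif in 6 of 18 mitochondrial stress genes and 0.729% of all. None of the 9 motifs was found in the windows of CBF1 and BHLH101.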

How the data were processed

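RNA of 12 whole-seedling libraries was sequenced as 75 bp single-end reads from a stranded mRNA kit, per the labels' protocols. The authors deposited raw counts of reads per locus, made with Trim Galore 0.3.3, TopHat2 2.1.0 and featureCounts (Subread 1.4.6), per the submitters' processing notes. Their strand setting is not given in the sources used here, so overlapping antisense genes and near-identical copies may share reads. Names came from RefSeq (TAIR10.1), which matched 21519 of 21543 loci, and promoters from its genome.

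Counts were tested with edgeR 4.0.16 (R 4.3.3): filterByExpr (minimum count 10, total 15), TMM scaling, a mean for each of 4 groups, the robust quasi-likelihood test and Benjamini-Hochberg adjustment over 20741 loci. Fitted fold changes use a prior count of 0.125 and understate changes of low genes. Errors are SEs worked back from the F statistic and these fold changes, so they are approximate for low genes. Total counts of 30472194 to 34694751 set the precision, and counting intervals (95%, exact) cover counting error only. Samples were grouped by their labels. The members and lists were chosen with earlier results of these data known. Genes named were MED8; those with the largest interactions among genes with a symbol, a group mean of at least 1 CPM and no overlap between media where called (4 per direction for reversed, lost and gained genes, 2 for reduced and enlarged ones); and the 2 members of each list with the smallest interaction p (the most abundant where none was called). Other list members were chosen after their values were seen. PEP, planned for a list, was left out because RefSeq does not pair that name with its locus. Other scalings, filters, DESeq2 1.42.0, a replicate block, a root marker covariate and libraries left out are described at the end.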

Additional observations from a re-analysis of the deposited data

Results flagged for a closer look

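The interaction itself tests whether methyl viologen acts differently in the 2 genotypes, so the called interaction of each gene chosen by rule is listed here. It was called for 2885 genes, of which 318 were reversed, 589 lost, 1516 gained, 120 reduced, 298 enlarged and 44 called in neither response. Values in parentheses are log2 interactions, the response in med8 minus that in Col-0.

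Iron genes with a lower med8 response were BHLH100 (−5.37), BHLH38 (−4.82), BHLH101 (−4.37), BHLH39 (−3.71), AT2G30766 (−3.09), CGLD27 (−3.06), ZIF1 (−2.13) and NRAMP4 (−1.92). Iron genes with a higher med8 response were NEET (3.89), FER4 (2.55) and FSD1 (1.62), beside the ferredoxin gene FED A (1.18).

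Cold, defence and rapid stress genes with a higher med8 response were CBF1 (5.43), COR15B (2.62), PCC1 (5.56), ALD1 (4.54), WRKY54 (4.24), BAP2 (7.58), NAC061 (8.78), NAC090 (8.01), CRK37 (8.52), ERF4 (2.09), ERF104 (1.64), TCH2 (1.401), SZF1 (2.61), JAZ1 (2.02), MYC2 (1.26) and AT1G57630 (3.89). Of these, AT1G57630 lost its call under 11 of 21 alternatives, and NAC061, NAC090 and CRK37 under 2 of 21 each, among them without Col-0 control replicate 2.

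Clock and light genes were RVE1 (−3.14), CCA1 (−1.94), LNK2 (−1.80), PIF5 (−0.57) and RCA (−1.31). Antioxidant, mitochondrial and detoxification genes were CAT3 (2.26), SAPX (1.59), GPX7 (−3.30), OM66 (3.16), NDA1 (−1.11), AT2G21640 (−0.83), GSTU17 (−1.63), GSTU5 (−0.66) and OXS3 (−2.19). Of these, AT2G21640 lost its call under 6 of 21 alternatives and OM66 under 1.

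Metabolic, transport, hormone and other genes with a higher med8 response were NRT2:1 (5.20), PUM8 (9.53), CYP712A2 (4.72), DMP1 (3.07), GLR2.2 (2.97), MEE3 (2.88), NF-YA10 (2.21), MGD3 (1.84), PPCK1 (1.05), PHO1 (0.75), NCED3 (1.74), DIN6 (1.44) and TGG2 (1.02). Those with a lower med8 response were LEA7 (−8.05), SAG29 (−4.47), CYP71A13 (−2.23), RHS18 (−2.57), BXL1 (−2.37), KCS12 (−2.21), BT2 (−2.07), DIN10 (−1.94), MYBL2 (−1.33), HAB1 (−0.97), SOC1 (−0.88) and SCR (−0.56). PUM8, with 0 counts in untreated med8, and LEA7 lost their calls under 3 of 21 alternatives each. RHS18 lost its call under 10 and KCS12 under 1.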

How the results depend on the processing

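Of 70 named genes 67 were called, and 57 kept their call and direction under every alternative. Nearly all were chosen for a large interaction or a small interaction p, so these counts do not describe called genes at large. The sign turned for MED8, HSP70 and HSP90.1, none of which was called. The covariate for root markers gave 0.14 for MED8 and −0.083 for HSP90.1, and leaving out each library gave −0.17 to 0.028 for MED8, −0.22 to 0.012 for HSP70 and −0.11 to 0.35 for HSP90.1.

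With that covariate 3426 interaction genes were called, of which 1981 were shared with the 2885; it shared 839 of 1516 gained, 343 of 589 lost and 210 of 318 reversed genes, and gave 650 enlarged and 26 in neither response. Without both libraries that stood apart 4094 were called, 2740 of them shared, and 554 genes were reversed (254 rising and 300 falling in med8) and 543 enlarged. DESeq2 gave 3562 interaction genes (1499 higher, 2063 lower), 462 enlarged and 75 in neither response. RLE scaling gave 1232 higher and 1719 lower. At an adjusted p under 0.01 the counts were 1345 interaction genes (545 higher, 800 lower), 3495 methyl viologen genes in Col-0, 118 reversed (33, 85), 345 lost (167, 178), 744 gained (258, 486), 38 reduced and 70 enlarged. With 2-fold responses required they were 33 reversed (31, 2), 339 lost (139, 200), 650 gained (204 of them falls), 28 reduced, 32 enlarged and 1803 in neither; fewer responses pass by construction.

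Leaving out each library in turn gave 1874 to 3332 interaction genes (827 to 1479 higher, 1038 to 1882 lower), 7092 to 9848 methyl viologen genes in med8 and 4391 to 7375 in Col-0. Reversed genes numbered 201 to 412 (68 to 202 rising, 133 to 234 falling in med8), lost 373 to 697 (182 to 333, 191 to 364), gained 961 to 1789 (389 to 747, 572 to 1042), reduced 59 to 148, enlarged 149 to 489, and 14 to 56 in neither. Of these fits, those without Col-0 methyl viologen replicate 1 or med8 methyl viologen replicate 2 gave the fewest interaction genes.

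Replicate numbers showed no clear pairing of the samples. Same-numbered deviations correlated from −0.38 to 0.46 (median 0.065), over 0.1 in 7 of 18 pairs. Differently numbered ones had a median of −0.039 and were over 0.1 in 10 of 36 pairs. With 3 libraries a group, these values cannot exclude a pairing. With the replicate block 2622 genes were called (1235 higher, 1387 lower), 2507 of them shared with the 2885. Depth limits genes with few counts: 12 called genes had a group with 3 counts or fewer.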
